A study of Mus musculus with 3 samples.

Results

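The genes described here belong to the unfolded protein response and the integrated stress response. They are Ern1, Atf6, Xbp1, Atf4, Ddit3, Ppp1r15a, Ppp1r15b, Herpud1, Trib3 and Chac1, 10 genes of the 55536 annotated mouse genes in the tables, taken by their GENCODE M21 symbols and not by a measured value. Earlier results of these data were, however, known when they were chosen. The RNA came from effector memory CD4 T cells of male B6.SJL-Ptprca Pepcb/BoyJ mice, adult and aged 5 months, and polyadenylated transcripts were sequenced. A single biosample gave 3 libraries, which the labels call technical replicates and which are named libraries 1, 2 and 3 by those numbers. All 3 form 1 group with no treatment, so no conditions were compared, each SD is a spread between libraries, and each p-value sets differences between these libraries against counting error. The sources used here give neither the sort gate nor whether animals were pooled.

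When unfolded proteins build up in the endoplasmic reticulum (ER), membrane sensors respond, namely IRE1alpha, encoded by Ern1, ATF6 and the kinase PERK, encoded by Eif2ak3. IRE1alpha cuts a short intron out of Xbp1 mRNA in the cytoplasm, ATF6 is cleaved in the Golgi to release a transcription factor, and PERK phosphorylates the translation initiation factor eIF2alpha. Phosphorylated eIF2alpha, which other kinases also make during amino acid shortage, viral infection or lack of haem, lowers translation in general while translation of Atf4 mRNA goes up. That arm is the integrated stress response, and it is ended by a phosphatase whose targeting subunits are encoded by Ppp1r15a and Ppp1r15b. In lymphocytes the pathway is best known from antibody-secreting plasma cells, which need XBP1 to enlarge the ER. Since XBP1, ATF6, IRE1alpha and ATF4 are regulated by splicing, cleavage, phosphorylation and translation, mRNA levels do not measure how active these proteins were.

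The Xbp1 site and 2 promoter stretches are printed because they show what the tables can and cannot resolve about this pathway. In transcript Xbp1-201 the bases that IRE1alpha removes lie in exon 4 of 5, on the plus strand at chr11:5524267-5524316 in GRCm38 with 12 flanking bases on each side. The 26 removed bases are in capitals, and the second line is the joined form:

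Xbp1 site, unspliced: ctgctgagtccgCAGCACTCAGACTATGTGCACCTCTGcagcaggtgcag
Xbp1 site, joined: ctgctgagtccgcagcaggtgcag

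The longest reading frame of Xbp1-201 holds 267 codons with these bases and 371 codons without them. Transcripts Xbp1-201, Xbp1-203 and Xbp1-204 of the annotation contain the 26 bases, Xbp1-202 does not, and none contains the joined form. The deposited Xbp1 values therefore cover the spliced and the unspliced mRNA together, and the share of the spliced form was not measured here.

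RefSeq promoter windows of the GRCm38.p6 build, from 250 bases before to 50 bases after the start, were matched for 8 members. Only the first listed window of each member was searched, whereas the shares of all windows count every listed window. Both strands were searched for the ER stress element in its second form (ERSE-II, written ATTGGNCCACG), the first form of that element (ERSE, in which CCAAT and CCACG stand 9 bases apart), the core of the unfolded protein response element (TGACGTGG) and the composite element bound by ATF4 with C/EBP proteins (CARE, written TGATGNAA). The stretches of Chac1 (chr2:119351019-119351086, plus strand) and Herpud1 (chr8:94386287-94386417, plus strand) are shown with the matches in capitals, the CARE as its reverse complement:

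Chac1: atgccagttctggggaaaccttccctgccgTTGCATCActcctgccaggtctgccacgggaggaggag
Herpud1: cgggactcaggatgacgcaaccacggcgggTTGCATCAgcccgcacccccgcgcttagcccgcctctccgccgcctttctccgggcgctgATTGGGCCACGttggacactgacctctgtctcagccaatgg

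Herpud1 held an ERSE-II, which 12 of all 32851 promoter windows (0.0365%) contained. A CARE was found in 3 of the 8 windows, those of Herpud1, Chac1 and Trib3, where it lies after the start, against 3.97% of all windows. No member window held an ERSE, found in 0.119% of all windows, or the TGACGTGG core, found in 0.676%. Chac1 and Herpud1 both carry a CARE, yet their mRNA levels lay at opposite ends: Herpud1 was among the most abundant members and Chac1 had no count. A match describes letters in this window and shows neither binding nor its absence.

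Of the 10 members 9 were detected, with a TPM (transcripts per 1e6 transcripts, a level per length) of at least 1 in each library. Ppp1r15a led, with a mean of 1031 ± 523 TPM (SD, n = 3), which placed it 99th among 9900 detected protein-coding genes. The others followed as Xbp1, Herpud1, Atf4, Ern1, Ppp1r15b, Ddit3, Atf6, Trib3 and Chac1. The range over libraries did not overlap between Ppp1r15a and Xbp1, between Ddit3 and Atf6, between Atf6 and Trib3, or between Trib3 and Chac1. The ranges of the other 5 pairs of neighbours overlapped over the 3 libraries, so those means do not differ beyond the spread between libraries. Within each library, however, Atf4 exceeded Ern1 and Ern1 exceeded Ppp1r15b, and in libraries 2 and 3 alone the ranges of none of these 5 pairs overlapped. Herpud1 and Atf4 stood in the opposite order there: Atf4 came second, with a mean of 254 TPM, ahead of Xbp1 at 179 TPM and Herpud1 at 153 TPM. In all, 7 members lay above 28.9 TPM, the median of detected protein-coding genes.

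**Figure D1:**
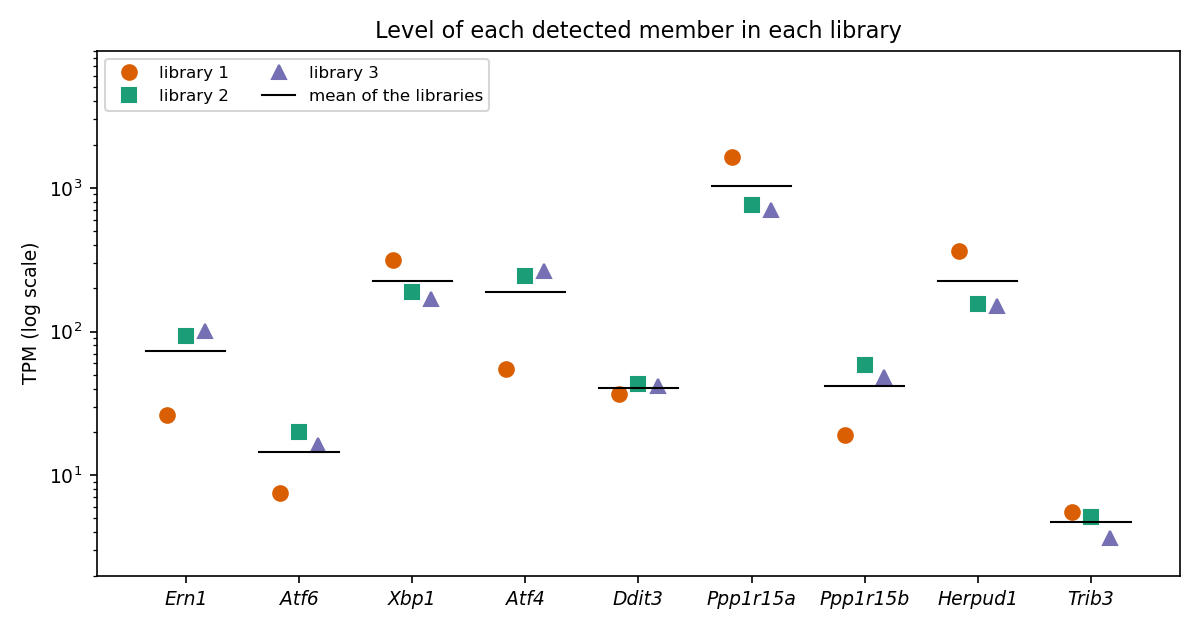
TPM of the 9 detected members (log scale) in libraries 1, 2 and 3, with a line at their mean. Libraries 2 and 3 lie closer to each other than to library 1 for every gene shown but Trib3, and library 1 lies above them for Xbp1, Ppp1r15a and Herpud1 and below them for Ern1, Atf6, Atf4 and Ppp1r15b; Chac1, at 0, is not drawn.

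Library 1 stood apart in many genes beyond the members. Expected counts on annotated genes totalled 17474991, 15303615 and 16882311 in libraries 1, 2 and 3. Counts differed between the libraries for 8 of the 9 members tested (Pearson's chi-square test of homogeneity, Benjamini-Hochberg adjusted p below 0.05 over all genes with at least 30 counts), but so did those of 75.8% of all 13177 genes tested. The members' share is thus near the background. At least 1.5-fold above the geometric mean of libraries 2 and 3 were 3 members, against 17.4% of all genes tested, and at least 1.5-fold below it were 4 members, against 27.8%. With chi-square divided by the median overdispersion of 13.8, 7 members were called, against 27.1% of all genes. Between libraries 2 and 3 alone, 5 members were called, against 16.7% of 12468 genes, with folds of at most 1.23. The library 1 ratio given below is log2(TPM + 1) in library 1 less the mean of libraries 2 and 3, a description with no test, and its median over all 11694 detected genes was -0.05.

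The sensor genes were both lower in library 1. Ern1, on chromosome 11 (106394650 to 106487852, minus strand), encodes the kinase and endoribonuclease IRE1alpha and had 26.1 TPM in library 1, 93.6 TPM in library 2 and 101.6 TPM in library 3. Its library 1 ratio was -1.86 and the counts of 589, 1969 and 2275 differed between the libraries (chi-square test, adjusted p = 1.50e-243). Libraries 2 and 3 did not pass the test between them (adjusted p = 0.332, chi-square test). Atf6, on chromosome 1 (170704674 to 170867771, minus strand), had 7.54 TPM in library 1, 20.0 TPM in library 2 and 16.3 TPM in library 3. Its ratio was -1.16 (adjusted p = 1.60e-77, chi-square test), and libraries 2 and 3 also differed (adjusted p = 0.00426). Ern1 exceeded Atf6 in each library, by 3.46-fold, 4.68-fold and 6.24-fold in TPM.

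The other sensors of the list were present except one. Eif2ak3, the PERK gene, stood at 18.6 ± 3.77 TPM and Atf6b, a paralogue of Atf6, at 45.4 ± 4.86 TPM (SD, n = 3). Ern2, the paralogue of Ern1 known from gut and airway epithelium, was not detected, at 0, 0.08 and 0.07 TPM. The library 1 ratios of Eif2ak3 and Atf6b were -0.37 and -0.22, so all 4 detected sensors lay below libraries 2 and 3, with only Ern1 and Atf6 past 1.5-fold.

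Xbp1, on chromosome 11 (5520659 to 5525893, plus strand), encodes the transcription factor that drives ER chaperone and degradation genes. It had 316 TPM in library 1, 189.6 TPM in library 2 and 168 TPM in library 3, a mean of 225 ± 80.1 TPM (SD, n = 3) and place 694 among detected protein-coding genes. Library 1 was 1.77-fold above the others, with a ratio of 0.82 (adjusted p = 2.28e-285, chi-square test on 6177, 2944 and 3019 counts). The mRNA of the substrate thus lay above, and that of its endoribonuclease below, the other libraries: Xbp1 exceeded Ern1 in TPM by 12.1-fold in library 1, 2.03-fold in library 2 and 1.65-fold in library 3.

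Because plasma cells are rich in Xbp1, the markers of that lineage stand beside its value. Of 8 plasma cell markers 5 were detected, with summed levels of 151, 113 and 111 TPM in libraries 1, 2 and 3. Jchain, the joining chain of secreted antibody, gave the largest part of this at 93.0, 51.3 and 53.7 TPM. Txndc5, an ER oxidoreductase that other cells use too, gave 53.0, 44.4 and 40.9 TPM. Sdc1, the plasma cell surface marker CD138, stood at 1.51 ± 0.397 TPM (SD, n = 3), Mzb1 at 1.16 ± 0.666 TPM and Tnfrsf17 at 0.0933 ± 0.0814 TPM. Fkbp11 was at 0.08, 0.26 and 0.08 TPM in libraries 1, 2 and 3. Derl3, an ER degradation gene, had 1.05, 4.04 and 2.10 TPM, and Pou2af1, a B lineage coactivator, 2.70, 10.3 and 10.4 TPM. Of the 5 called plasma cell markers Jchain alone was at least 1.5-fold higher in library 1, as Xbp1 was. Sdc1, Derl3 and Pou2af1 were lower there by at least that fold in TPM. Sdc1 rested on 30, 41 and 25 counts in libraries 1, 2 and 3, so by count library 3 was lowest. Derl3 rested on 13, 27 and 21 counts. Both lay near the threshold of the test (adjusted p = 0.0484 and 0.0420, chi-square test). The part of plasma cells in the Xbp1 level was not tested. In bulk RNA, fewer cells of a type and less RNA per cell cannot be told apart. All 8 CD4 T cell markers were detected, at a median of 572 TPM and led by Trac and Lck, whereas 10 of 30 markers of other lineages were detected. Among those, Cd8a stood at 0.0433 ± 0.0404 TPM and was at 0 in library 1, Pax5 of B cells was at 0 in library 1 too, and Flt3 of dendritic cells at 0 in libraries 1 and 2. Cd8b1, at 8.18 ± 2.57 TPM, Cd22, at 20.6 ± 6.93 TPM, Zbtb46, at 14.0 ± 1.41 TPM, and Cd68, at 4.72 ± 1.42 TPM, led the CD8 T, B, dendritic and monocyte lists (SD, n = 3), followed by Cd79a, H2-Ab1 and Lyz2.

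Atf4, on chromosome 15 (80255184 to 80257541, plus strand), encodes the effector of the integrated stress response and had the library 1 ratio of largest size among the members in TPM, though not in the second gene table, on M4 annotation, where Ern1 had it. It had 54.5 TPM in library 1, 245 TPM in library 2 and 263 TPM in library 3. Library 1 was lower by 4.66-fold, with a ratio of -2.20, and the chi-square of 2484 on 2 degrees of freedom passed the threshold. In the M4 table Atf4 was lower in library 1 by 2.42-fold, with a ratio of -1.27, against -1.82 for Ern1. Libraries 2 and 3 of the M21 table differed as well, by far less, with library 2 at 0.934 of the library 3 TPM (adjusted p = 5.39e-07, chi-square test). Ddit3, on chromosome 10 (127290774 to 127296288, plus strand), encodes the pro-apoptotic factor CHOP, a known ATF4 target. It stayed near one level, with 37.0 TPM in library 1, 42.9 TPM in library 2 and 41.7 TPM in library 3, and was the tested member that did not pass (adjusted p = 0.261, chi-square test). The Atf4 to Ddit3 ratio in TPM was accordingly 1.47 in library 1, 5.71 in library 2 and 6.29 in library 3.

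Ddit3 has limits of its own. Of its 1713 exon bases 68 overlap Mars, a methionyl-tRNA synthetase gene on the opposite strand at 59.4, 44.6 and 44.4 TPM, and whether reads were counted by strand is not stated. A second annotated gene with the same symbol lies within its span, shares 105 exon bases with it and was given no count in any library.

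The TPM of the eIF2alpha phosphatase subunits lay on opposite sides of the other libraries in library 1, but the M4 table gave only a 1.09-fold excess of Ppp1r15a there, against 2.24-fold in TPM. Ppp1r15a, on chromosome 7 (45522916 to 45526268, minus strand), encodes GADD34, the stress-inducible subunit, and had 1634 TPM in library 1, 763 TPM in library 2 and 696 TPM in library 3. Its library 1 ratio was 1.16, and the chi-square of 11072 on 2 degrees of freedom was the highest of the members. Ppp1r15b, on chromosome 1 (133131143 to 133139783, plus strand), encodes CReP, the constitutive subunit, and had 18.9 TPM in library 1, 58.7 TPM in library 2 and 48.1 TPM in library 3. Its ratio was -1.44 (adjusted p = 4.60e-221, chi-square test). The inducible subunit exceeded the constitutive one in TPM by 86.3-fold in library 1, 13.0-fold in library 2 and 14.5-fold in library 3, so its excess was present in every library but its mean size rested on library 1 and on the M21 table. Of the 5594 exon bases of Ppp1r15b 640 overlap Gm26616 on the opposite strand, a gene at no more than 0.21 TPM.

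The catalytic subunits they recruit were abundant. Ppp1cc stood at 923 ± 187 TPM, Ppp1ca at 809 ± 429 TPM and Ppp1cb at 176 ± 5.07 TPM (SD, n = 3). Ppp1ca had a library 1 ratio of 1.21 and Ppp1cc one of 0.48, while Ppp1cb did not pass the test (adjusted p = 0.319, chi-square test). Ppp1r15b mRNA was 4.19-fold below that of Ppp1cb, the least abundant of these subunits.

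Herpud1, on chromosome 8 (94386438 to 94395377, plus strand), encodes an ER membrane protein of the degradation machinery. It had 363 TPM in library 1, 156 TPM in library 2 and 150.2 TPM in library 3, with a ratio of 1.24, the highest of the members, and a chi-square of 2573 on 2 degrees of freedom. Libraries 2 and 3 did not pass between them (adjusted p = 0.825, chi-square test). Xbp1 and Herpud1 stayed close in level, with an Xbp1 to Herpud1 ratio in TPM of 0.871, 1.21 and 1.12 in libraries 1, 2 and 3.

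The late targets were low. Trib3, on chromosome 2 (152337422 to 152344032, minus strand), a pseudokinase induced by ATF4 and CHOP, had 5.51 TPM in library 1, 5.08 TPM in library 2 and 3.66 TPM in library 3, from 117, 73 and 75 counts. It was called over the 3 libraries (adjusted p = 0.0125, chi-square test) but no longer with the overdispersion scaling. Chac1, on chromosome 2 (119351229 to 119354381, plus strand), which encodes a glutathione-degrading enzyme, had 0 counts in every library. A floor of 3 counts allows a level of up to 0.176, 0.213 and 0.182 TPM in libraries 1, 2 and 3, for counting error only, so no Chac1 mRNA was detectable at this depth.

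The second gene table, of whole-number counts on GENCODE M4 annotation, gave other sizes for the library 1 ratios. In it, 7 of 9 members tested were called, against 68.4% of 10219 genes, and Trib3 did not pass (adjusted p = 0.0630, chi-square test). Ppp1r15a had 3443, 3188 and 3229 counts there in libraries 1, 2 and 3, a ratio of 0.12 in log2(CPM + 1), where CPM is counts scaled to a library total of 1e6, against 1.16 in TPM. The counts of the M4 table were 10.1% of the expected counts of Ppp1r15a in library 1, and 23.8% and 22.8% in libraries 2 and 3. For genes at 100 TPM or more the median of that share was 31.6%, 35.3% and 33.5%, and for less abundant detected genes 55.7%, 56.4% and 55.1%. The high Ppp1r15a level of library 1 was therefore present in one table and nearly absent in the other, a point whose cause was not tested.

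Other members kept more of their difference. The M4 ratio was 0.57 for Xbp1, 0.79 for Herpud1 and -1.27 for Atf4, each nearer to 0 than in TPM. It was -1.82 for Ern1, -1.01 for Atf6 and -1.09 for Ppp1r15b. Ddit3 had a ratio of 0.10 in M4 and -0.19 in TPM, and it did not pass the test in either table (adjusted p = 0.633 in M4, chi-square test). For 8 of the 9 detected members the sign was the same in all 9 alternatives to the TPM ratio, and Ddit3 was the exception. For Ppp1r15a a kept sign is no excess over the other genes in the M4 table. Its ratio there, 0.118, was no higher than the median of all detected genes, 0.120. Its M4 counts still differed between the libraries (adjusted p = 0.000481, chi-square test).

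**Figure D2:**
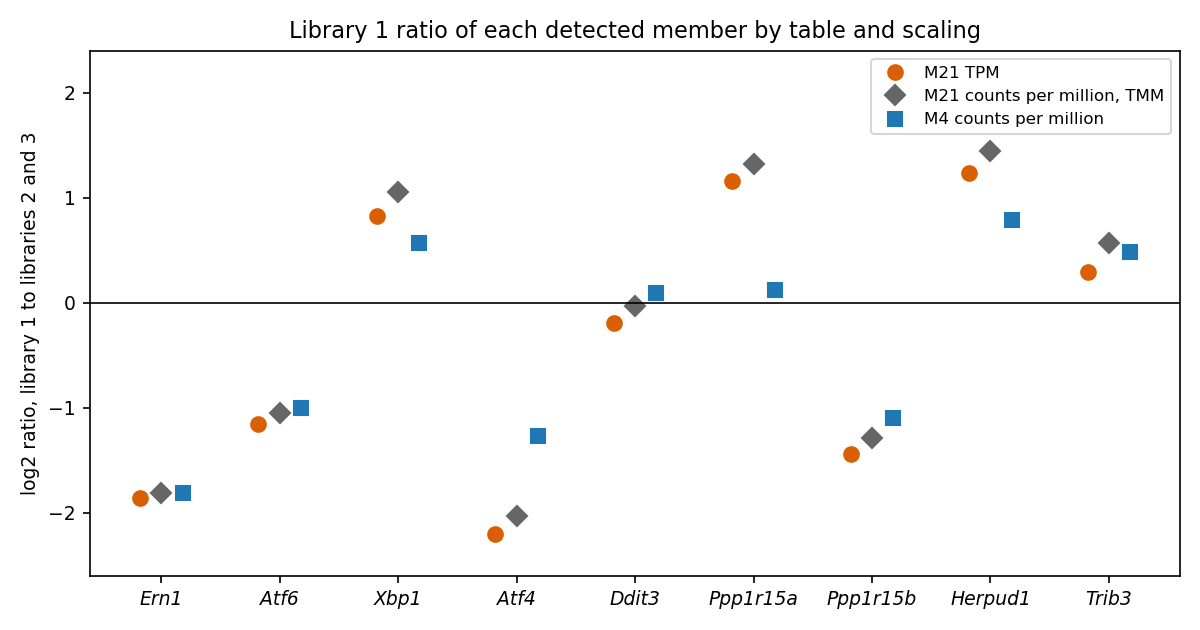
Log2 ratio of library 1 to the mean of libraries 2 and 3 for the 9 detected members, from M21 TPM, from M21 CPM with TMM scaling and from M4 CPM, each with a pseudocount of 1. Ppp1r15a lies at 1.16 in TPM and at 0.12 in the M4 table, while Ern1 stays near -1.8 in each.

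Transcript length moved with the library 1 ratio. Over 11689 detected genes, which are not independent replicates, Spearman's correlation of the ratio was -0.278 with length and -0.0955 with GC content, a description without a test. With mean TPM, a level that includes library 1, it was 0.140 over all 11694 detected genes. Genes in the longest decile had a median ratio of -0.67, and that decile holds Atf6, with a mean length of 7078 bases, and Ppp1r15b, with 5493 bases. The shortest decile also had a median below 0, at -0.12. Ern1, with a mean length of 2292 bases, lies in a decile whose median was 0.04. Most of its expected counts, however, fell on Ern1-201, of 6946 bases. Atf4, at 1741 bases, lies in a decile whose median was 0.10, the same decile as Xbp1, Herpud1, Ppp1r15a and Trib3, so genes of similar length lay on both sides. The part of length or of level in the members' ratios was not tested.

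Most members were led by a single annotated transcript, by the deposited percent of the gene's transcripts. Atf6-201 took 96.9% ± 0.630, Ppp1r15b-201 95.4% ± 2.35, Atf4-201 94.6% ± 0.129 and Ddit3-201 90.4% ± 2.36 (SD, n = 3). Ppp1r15a-201 took 80.8% ± 0.257 and Ppp1r15a-203, a short form, 16.9% ± 0.617. By share of expected counts Ppp1r15a-203 held 3.06%, 2.80% and 2.91% in libraries 1, 2 and 3. Trib3-201 took 100% in libraries 1 and 3 and 76.6% in library 2, where a retained-intron transcript, Trib3-203, took the rest. That rest came from 4.81 expected counts, 6.59% of the gene's counts in library 2. Of the 32 annotated member transcripts 5 had no count in any library.

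Xbp1-201 took 76.9% in library 1, 71.5% in library 2 and 70.3% in library 3. The retained-intron transcript Xbp1-202 took 12.02%, 13.9% and 14.7%, and Xbp1-204 took 5.52%, 10.2% and 10.9%. These shares differed over the 3 libraries (adjusted p = 3.01e-13, chi-square test of transcript by library) and did not pass between libraries 2 and 3 (adjusted p = 0.805). Library 1 thus had more of the main coding form. None of these shares says how much Xbp1 was spliced by IRE1alpha.

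Ern1 and Herpud1 were more mixed. Ern1-202, of 660 bases, had the highest percent at 41.6% ± 2.74 (SD, n = 3), ahead of Ern1-201, of 6946 bases, at 22.1% ± 2.13. By share of expected counts the order turned, with Ern1-201 at 65.5%, 70.4% and 70.2% in libraries 1, 2 and 3 and Ern1-202 at 11.2%, 11.2% and 12.1%. The lead of the short form therefore holds per length and rests on a small share of the reads. Herpud1-205 took 69.9% ± 2.21 of Herpud1 and Herpud1-201 14.9% ± 2.001 (SD, n = 3).

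Shares of transcripts differed over the libraries for 5 of 7 members with enough counts, Xbp1, Ern1, Ppp1r15a, Ppp1r15b and Herpud1, but also for 87.7% of all 8119 genes tested. Between libraries 2 and 3 alone, 3 members were called against 61.8% of all genes. Reads shared between transcripts are split by estimation, so the counting error in this test is understated. With overdispersion scaling no member was called, against 1590 of all 8119 genes.

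**Figure D3:**
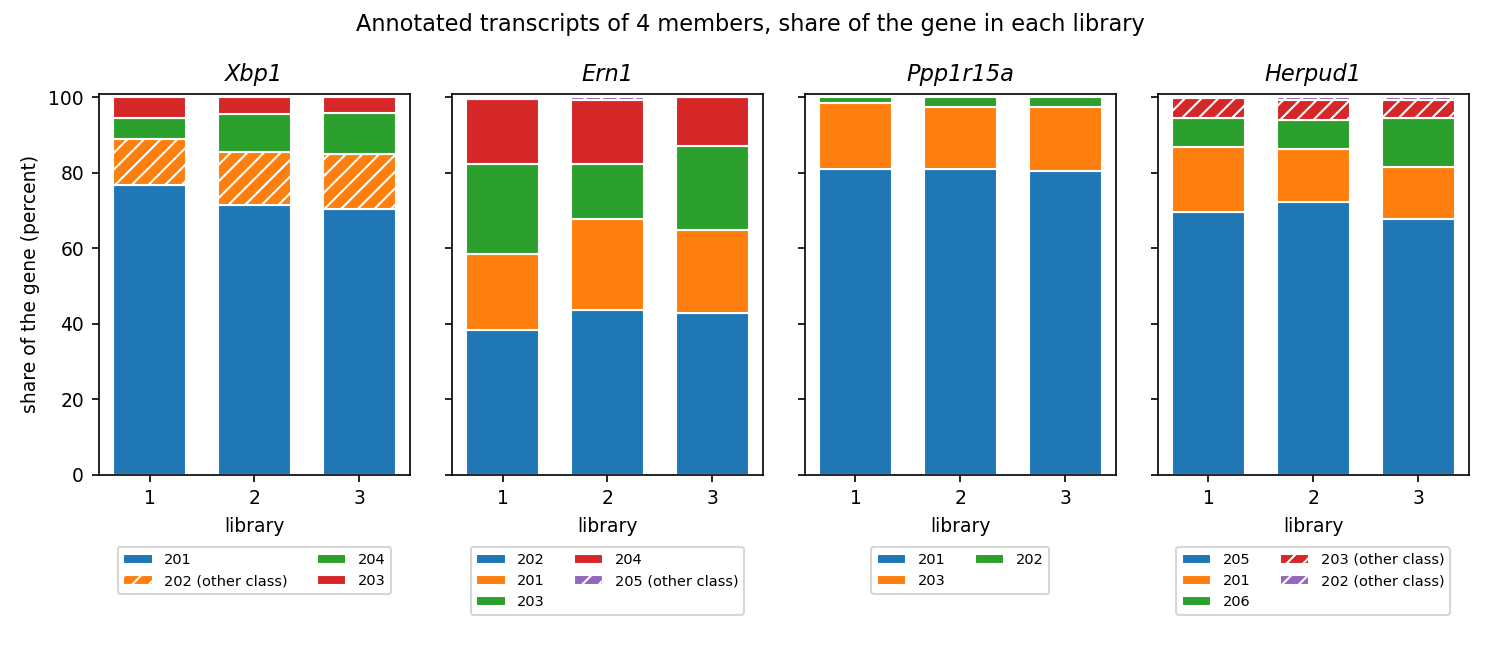
Percent of the gene taken by each annotated transcript in libraries 1, 2 and 3, for Xbp1, Ern1, Ppp1r15a and Herpud1, with transcripts outside the protein-coding class hatched. Ppp1r15a-201 lies near 81% in each library, and no Ern1 transcript passes 50%.

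Genes around the members were taken from 11 lists of 115 other genes, of which 97 were detected. Of 102 tested, 85 (83.3%) were called, against 75.8% of all genes. In library 1, 33 (32.4%) were at least 1.5-fold higher, against 17.4% of all genes, and 16 (15.7%) at least 1.5-fold lower, against 27.8%. These same shares of all genes are the background of each list's counts below. The median library 1 ratio of the detected ones was 0.17, against -0.05 over all detected genes. At a 2-fold limit the counts were 18 higher and 12 lower. All values of the lists rest on the M21 table. They were not computed for the M4 table, in which the members' library 1 ratios had other sizes.

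ER chaperones and folding enzymes, the classic output of ATF6 and XBP1, were all present, 17 of 17, with a median of 86.1 TPM. Hspa5, the chaperone BiP that also holds the sensors inactive, had 1755 TPM in library 1, 966 TPM in library 2 and 872 TPM in library 3. Pdia3, a disulphide isomerase, stood at 379 ± 122 TPM and Calr, the lectin chaperone calreticulin, at 358 ± 163 TPM (SD, n = 3). Of the 17, 15 were called (88.2%, against 75.8% of all genes), 8 higher and 2 lower in library 1. The lower ones were Calr, with a ratio of -1.40, and Hyou1, a BiP partner, at 2.56 TPM in library 1, 14.9 TPM in library 2 and 13.4 TPM in library 3.

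ER-associated degradation genes were all present too, 17 of 17 with Herpud1 included, with a median of 90.7 TPM. Ube2j1, an ER ubiquitin-conjugating enzyme, stood at 215 ± 42.1 TPM, the segregase Vcp at 217 ± 18.9 TPM and Edem1 at 194 ± 84.8 TPM (SD, n = 3). All 17 were called, where 75.8% of all genes were, with 6 higher and 4 lower in library 1. Derl2, with a ratio of 1.505, and Selenos, with 1.35, had the largest ratios.

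The machinery around Xbp1 and ATF6 was present, 8 of 8. Rtcb, the ligase that joins the cut Xbp1 mRNA, stood at 74.2 ± 26.7 TPM, its cofactor Ddx1 at 62.5 ± 35.2 TPM and Nfyc, a subunit of the CCAAT-binding factor, at 77.7 ± 3.22 TPM (SD, n = 3). Ddx1 had a ratio of 1.27 and Mbtps1, the site-1 protease that cleaves ATF6, one of -0.98. Counts were 3 higher and 1 lower. Of the IRE1 partners 6 of 7 were detected, with Bax at 212 ± 95.6 TPM, Tmbim6 at 175 ± 93.0 TPM and Traf2 at 79.0 ± 38.9 TPM (SD, n = 3), and Bak1 was not. In that list 4 were higher in library 1, among them Tmbim6 with a ratio of 1.21, and 2 were lower, among them the kinase Map3k5 with -1.12. Of 6 known substrates of IRE1-dependent mRNA decay only Bloc1s1, at 102 ± 35.6 TPM, and Hgsnat, at 56.5 ± 11.2 TPM (SD, n = 3), were detected, and Scara3, Pmp22, Col6a1 and Sparc were not. Bloc1s1 was higher in library 1, with a ratio of 0.78, and Hgsnat had one of 0.46.

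The kinases and factors upstream of Atf4 were present, 10 of 10, and 9 were called (against 75.8% of all genes), 3 higher and 1 lower in library 1. Eif2s1, which encodes eIF2alpha, stood at 167 ± 47.2 TPM, Eif2b2 at 66.7 ± 13.3 TPM and Eif2b5 at 53.1 ± 16.1 TPM (SD, n = 3). Eif2b3 had the highest ratio, 1.14, and Eif2ak4, the amino acid sensor GCN2, the lowest, -1.26. Downstream, 22 of 32 ATF4 and CHOP targets were detected, with a median of 20.6 TPM, and 13 of 23 tested were called (56.5%, against 75.8% of all genes), 4 higher and 2 lower. That list includes the members Ddit3, Trib3, Chac1, Ppp1r15a and Herpud1. Slc3a2, an amino acid transporter chain, stood at 460 ± 32.6 TPM, Cebpb at 147 ± 31.3 TPM and Ero1l at 78.3 ± 36.8 TPM (SD, n = 3). Ero1l had a ratio of 1.07 and Slc7a5, which pairs with Slc3a2, one of -1.26. The list's median ratio was -0.02, beside -2.20 for Atf4 itself, or -1.27 in the M4 table. With Chac1, Atf5, Nupr1, Slc7a11, Vldlr, Stc2, Cth, Gpt2, Gdf15 and Fgf21 were not detected.

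Among bZIP factors, which pair with ATF4 and CHOP or bind like sites, 9 of 13 were detected. Batf, a lymphocyte AP-1 factor, varied little in TPM, at 487 ± 3.23, with Cebpb next and Crebrf at 115 ± 17.9 TPM (SD, n = 3). The Batf counts of 4281, 3343 and 3950 did differ between the libraries (adjusted p = 8.20e-06, chi-square test). Creb3 had a ratio of 1.19 and Atf3 one of -0.72, and Atf5, Cebpa, Cebpd and Creb3l1 were not detected. Counts were 1 higher and 4 lower in library 1, Atf4 included. Immediate early and heat shock genes, which cell handling is known to induce, were all present, 12 of 12, with a median of 606 TPM. Their summed level was 24183, 14811 and 12767 TPM in libraries 1, 2 and 3. Junb alone gave 14760, 6821 and 5911 TPM of it, whereas Hspa1b was lowest in library 1, at 1603, 2452 and 1966 TPM. Junb stood at 9164 ± 4868 TPM, Hspa1b at 2007 ± 426 TPM and Dusp1 at 1509 ± 1135 TPM (SD, n = 3). Dusp1 had a ratio of 1.72 and Fosb one of -2.22, with 6 higher and 2 lower in library 1. The part of handling in the levels of Ppp1r15a, Atf3 or Ddit3 was not tested.

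**Figure D4:**
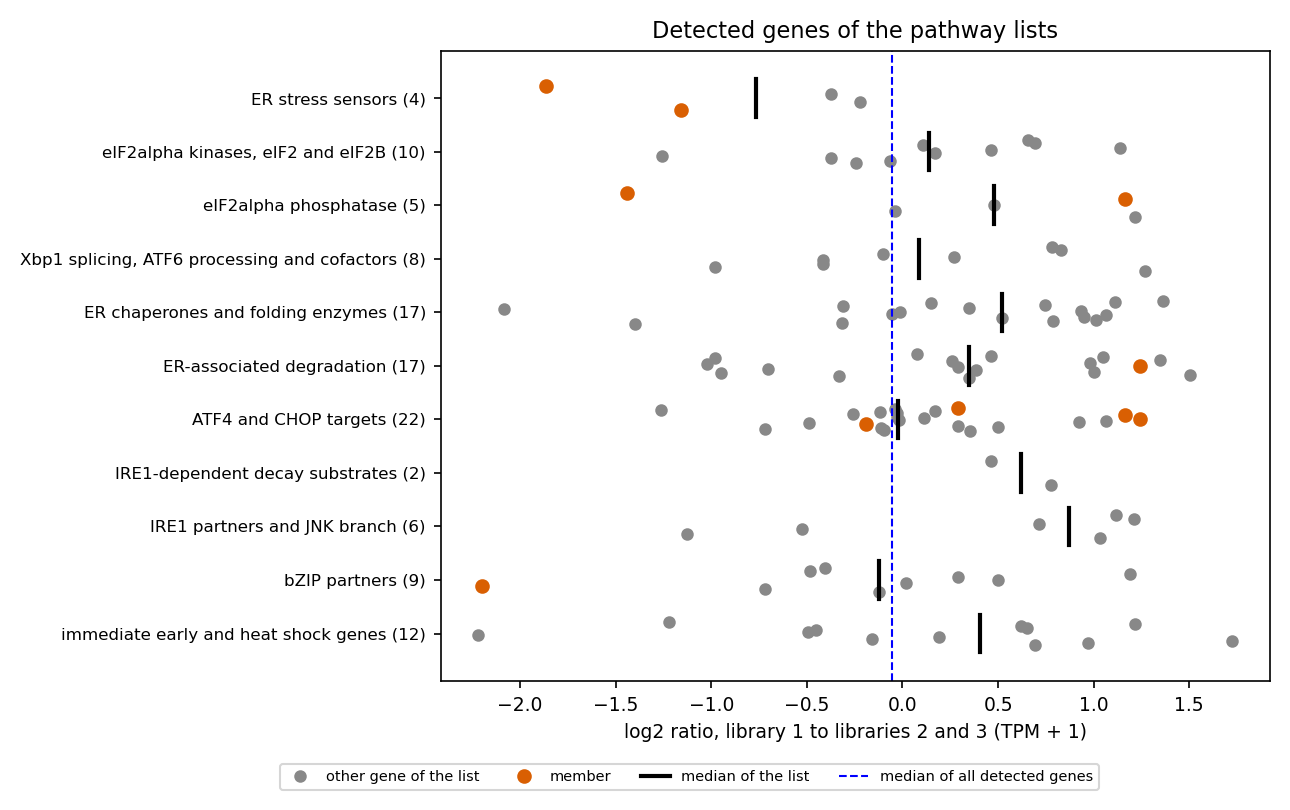
Library 1 log2 ratio of each detected gene in the 11 pathway lists, on the log2(TPM + 1) scale, with members in orange, other genes in grey, a bar at each list's median and a dashed line at the median of all detected genes (-0.05); the number detected is in parentheses. List medians run from -0.77 for the ER stress sensors to 0.87 for the IRE1 partners, and genes lie on both sides of 0 in every list with 5 or more detected genes.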

How the data were processed

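Polyadenylated RNA of 1 biosample was sequenced in 3 libraries. Per the file headers, the authors mapped to mm10 and used GENCODE M21 for the gene and transcript tables and M4 for a further gene table. The deposited expected counts are estimates that need not be whole and were rounded to whole numbers for tests. TPM and FPKM were deposited by the authors, each scaled within its library. The transcript tables hold the deposited percent of each gene. The M4 table holds deposited whole-number counts with no header. The deposited TPM bounds, whose kind no source names, were treated as a score and not used as errors, since 23 of 27 member values lie above the upper bound and 0 below the lower. No source used here names the aligner, the quantifier or the strand setting. From the effective lengths, reads had 50 bases.

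Symbols and coordinates came from GENCODE M21 on GRCm38 and matched all 55536 gene IDs. M4 rows were matched by ID without version, 22195 of 22457. Rows that name no annotated gene stayed out of library sizes and tests. Of the genes with at least 30 counts, each was tested with Pearson's chi-square test over the libraries (scipy 1.17.1, Python 3.11.15, numpy 2.4.6, pandas 2.3.3), which treats reads as independent molecules. Transcript by library was tested likewise. With 1 group, a quasi-likelihood test has no contrast. edgeR 4.0.16 and DESeq2 1.42.0 in R 4.3.3 gave alternative scalings only. Both chi-square tests were tested on simulated counts with known changes. Those counts held counting error only. They cannot show how the tests behave on these data, whose median overdispersion over genes was 13.8. Intervals and floors cover counting error only.

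The members and lists were chosen with earlier results of these data known. All members are named, and of each list the 3 other genes highest in mean TPM, the 2 detected and called with the largest library 1 ratio, and the undetected ones. Of each marker list the highest 2 and the defining markers at 0 are named, and of the plasma cell list all markers. Atf6 and Ppp1r15b are not in the promoter table.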

Additional observations from a re-analysis of the deposited data

How the results depend on the processing

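Detection of 9 members held under each alternative but a TPM of at least 5, which gave 8. Of 13177 genes 9983 varied between the libraries, and 8 members did. The count of genes was 3570 with overdispersion scaling, and it ranged from 2079 to 9260 when a library was left out, while that of members ranged from 5 to 8. Library 1 decides these: without it Ern1, Herpud1 and Trib3 were no longer called. The count of genes with differing transcript shares was 7121, 1590 with overdispersion scaling, and 4678 to 6105 when a library was left out. Of the other pathway genes 33 were higher in library 1, or 18 at a 2-fold limit, both in the M21 table only.

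The median library 1 ratio of the detected members was -0.19. It was -0.15 with FPKM, -0.029 with TMM, -0.00095 with DESeq2 size factors, -0.14 less the median of all detected genes, -0.067 less the median of the same decile of GC content, and 0.10 in the M4 table. The median of all detected genes moved to 0.08 with TMM, 0.11 with DESeq2 size factors and 0.12 in the M4 table. In the M4 table the members' ratios moved in both directions, down for Ppp1r15a, Herpud1 and Xbp1 and up for Atf4, Ddit3 and others. The cause of the difference between tables was not tested. Of 157 alternatives for single members 122 moved less than the spread between libraries and 35 moved more. The 122 include every setting that left a library out. Those settings stay within that spread by construction, so the count of 122 is no measure of stability. No paired analysis was possible because the libraries form 1 group. Trib3, with 73 to 117 counts, is limited by depth.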
